A study of Mus musculus with 12 samples.

Results

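Haem breakdown and iron handling were followed through 9 genes in alveolar macrophages, which live in the air sacs of the mouse lung. The genes were chosen by symbol from a table of 23413 genes, and all 9 were found and passed the filter on low counts. They are Hmox1, Blvra, Blvrb, Ftl1, Fth1, Slc40a1, Slc11a1, Slc48a1 and Tfrc. The study measured RNA in 12 libraries, 2 in each of 6 groups, to ask how the vitamin D receptor, encoded by Vdr, and its ligand vitamin D3 act on these cells. Fresh cells were washed from the lungs of Vdr knockout and wild-type mice at 4 weeks of age, and of Vdr knockout and wild-type mice at 10 weeks. Wild-type cells were also kept in culture for 24 h with 50 nM vitamin D3 or without it; the age of the mice that gave them is not stated. The labels give neither the deleted part of Vdr nor a cell type for the deletion, and nothing states that replicate libraries come from different mice. P-values therefore measure only the spread between these libraries, which may be technical except at 10 weeks, where the replicates of each genotype differed in sex (below) and so came from different mice.

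Macrophages of the lung take up red cells and free haem as part of clearing the air spaces. Haem taken up in this way is moved out of the lysosome by the transporter Slc48a1, and haem oxygenase 1, encoded by Hmox1, opens the ring and releases iron, carbon monoxide and biliverdin. The biliverdin reductases Blvra and Blvrb turn biliverdin and related compounds into their reduced forms. Iron that is not used is stored in ferritin, built from light chains (Ftl1) and heavy chains (Fth1), or leaves the cell through ferroportin (Slc40a1). Slc11a1 moves metal ions across the phagosome membrane, and Tfrc, the transferrin receptor, brings in iron bound to transferrin. Hmox1 and the ferritin genes are also known targets of the antioxidant transcription factor encoded by Nfe2l2, while Bach1, a repressor that senses haem, acts against it.

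Iron also acts on several of these messages after transcription, through a hairpin called the iron-responsive element. The hairpins of the members are shown because they divide the set into messages whose translation is held back when iron is scarce (a hairpin in the 5′ untranslated region) and a message that is stabilised when iron is scarce (hairpins in the 3′ untranslated region). The search was for a C, 5 bases, the loop CAGTGN, and 5 bases that pair with the first 5, with G–T pairs allowed, on the sense strand of GENCODE M21 transcripts (build GRCm38). The bulged C and the first 5 bases of the loop are in capitals.
Ftl1, 5′ untranslated region, chr7:45459778-45459807, minus strand: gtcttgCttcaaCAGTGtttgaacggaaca
Fth1, 5′ untranslated region, chr19:9982732-9982761, plus strand: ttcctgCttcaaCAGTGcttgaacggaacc
Slc40a1, 5′ untranslated region, chr1:45925464-45925493, minus strand: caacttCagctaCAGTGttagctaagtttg
Tfrc, 3′ untranslated region, chr16:32631219-32631248, plus strand: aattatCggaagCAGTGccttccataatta
Tfrc, 3′ untranslated region, chr16:32631598-32631627, plus strand: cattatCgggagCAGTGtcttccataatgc
Tfrc, 3′ untranslated region, chr16:32631663-32631692, plus strand: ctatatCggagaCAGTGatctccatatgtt
Tfrc, 3′ untranslated region, chr16:32631710-32631739, plus strand: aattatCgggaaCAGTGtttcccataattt
Over transcript starts of the same length, a match was found in 0.0992% for Ftl1, 0.0944% for Fth1 and 0.1185% for Slc40a1. Of 2556 3′ untranslated regions at least as long as that of Tfrc, 1 had 4 matches within that length (0.0391%). No match was found in the untranslated regions of the other 5 members.

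Promoter sequences of 300 bases (250 before and 50 after the start site; RefSeq, GRCm38.p6) were matched for 6 of the 9 members, namely Blvra, Blvrb, Ftl1, Fth1, Slc11a1 and Tfrc. They were searched on both strands for TGACNNNGC, the core of the antioxidant response element, which 4071 of 32851 promoter entries held (12.4%). Of the 6, Blvra had a match, on the strand opposite to the gene and beginning 49 bases before its start site. It is shown as read on the gene's own strand, with 8 flanking bases on each side and the core in capitals.
Blvra, promoter, chr2:127070600-127070624, plus strand: cgggaattGCTCGGTCAaggctccg
The match is a description of letters in this window; elements farther from a start site were not searched.

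Total counts per library ranged from 10409572 to 23233674, so 1 count was worth at most 0.0904 CPM, the normalised read count used throughout, and the lowest count of any member in any library was 64. In each group the spread between replicates exceeded sampling noise (chi-square of 9.98 to 52.1 per degree of freedom). Of 15 alveolar macrophage markers 13 were in the table and none was at 0 in any library; their summed level was 17626 to 46761 CPM. Vdr was counted in every library. It was at 45.9 and 31.2 CPM in 4-week knockout cells against 56.5 and 57.7 CPM in 4-week wild-type cells, and at 84.2 and 45.0 CPM in 10-week knockout cells against 79.6 and 126.9 CPM in 10-week wild-type cells. Neither difference passed the threshold (edgeR adjusted p 0.527 and 0.538), and reads outside a deleted part would check nothing. The library labelled 10-week knockout replicate 1 thus lay within the wild-type range for Vdr. Codes in the descriptions go against the genotype label for this library, which they give as wild type. They also do so for wild-type replicate 2 of that age, coded as knockout, which had the highest Vdr of the 12 libraries (126.9 CPM). Whether labels or codes are right was not tested, and the genotype labels were used here. Both 10-week libraries numbered 2 expressed Xist, at 787.3 CPM in knockout and 800.3 CPM in wild type, whereas the other 10 libraries had under 1 CPM, so at 10 weeks replicate number went with sex.

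In 4-week knockout cells the haem-degrading enzyme, both ferritin chains and the iron exporter were higher than in wild-type cells of that age. Of the 9 members 4 rose (Hmox1, Slc40a1, Ftl1 and Fth1), none fell, and 5 did not pass the threshold, an adjusted p of 0.05 in edgeR's quasi-likelihood test over 12748 genes. Over all genes tested, 0.667% passed in either direction (60 higher and 25 lower). The median log2 fold change of the members was 0.95, against -0.0066 for all genes tested.

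Hmox1 was at 985 and 991 CPM in 4-week knockout libraries, against 231 and 152 CPM in 4-week wild-type libraries. Both knockout libraries were far above both wild-type libraries, and the 2 knockout values nearly coincided. The log2 fold change was 2.37 ± 0.18 (SE), or 5.16-fold, with an edgeR adjusted p of 0.000112, and Hmox1 ranked 4 of 12748 genes by p. Slc48a1, which supplies haem to this enzyme, was at 248 and 274 CPM in knockout and 183 and 154 CPM in wild-type libraries. These groups did not overlap either, but the log2 difference of 0.63 ± 0.14 did not pass the threshold (edgeR adjusted p 0.067), although it did in DESeq2 (adjusted p 0.000919). Neither of the downstream reductases passed. Blvra was at 162 and 165 CPM in knockout and 159 and 156 CPM in wild-type cells, a log2 difference of 0.05 ± 0.09. Blvrb, at 53.0 and 73.7 CPM in knockout against 50.0 and 30.3 CPM in wild-type cells, had a log2 difference of 0.66 ± 0.26 that did not pass (edgeR adjusted p 0.352).

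Both ferritin chains were about doubled. Ftl1 was at 14298 and 14559.9 CPM in 4-week knockout and 7662 and 6662 CPM in 4-week wild-type libraries. Fth1 was at 10710.1 and 10770.4 CPM in knockout and 5642 and 5472 CPM in wild-type libraries. Neither gene's groups overlapped. The log2 fold changes were 1.01 ± 0.11 for Ftl1 (edgeR adjusted p 0.000851) and 0.95 ± 0.12 for Fth1 (edgeR adjusted p 0.00308). The 2 chains together took 2.66% and 2.65% of all counts in knockout libraries, against 1.40% and 1.33% in wild-type libraries (exact 95% binomial intervals of 2.66% to 2.67%, 2.64% to 2.66%, 1.39% to 1.41% and 1.33% to 1.34%, for counting error only). Without wild-type replicate 2 the adjusted p of Fth1 was 0.0528. Ferritin pseudogenes that RefSeq lists, such as Ftl1-ps1 and Ftl1-ps2, are not rows of the count table, and the sources used here do not state how reads shared with such copies were counted.

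Slc40a1, the exporter, was at 43.3 and 51.2 CPM in 4-week knockout libraries and 11.5 and 7.48 CPM in 4-week wild-type libraries. Its log2 fold change was 2.33 ± 0.28, or 5.02-fold (edgeR adjusted p 0.00266), about the size of that of Hmox1. The 2 genes of metal uptake did not pass the threshold. Slc11a1 was at 15.8 and 19.3 CPM in knockout and 11.7 and 4.49 CPM in wild-type cells, a log2 difference of 1.16 ± 0.39 (edgeR adjusted p 0.262). Tfrc overlapped between the groups, at 38.4 and 28.4 CPM in knockout and 37.3 and 36.0 CPM in wild-type cells, with a log2 difference of -0.13 ± 0.24. Of the 4 members with an iron-responsive element, the 3 with it in the 5′ untranslated region rose. Tfrc, with it in the 3′ untranslated region, did not pass the threshold. Hmox1, in which no match was found, rose as well. The part of the hairpins in these RNA levels was not tested.

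**Figure D1:**
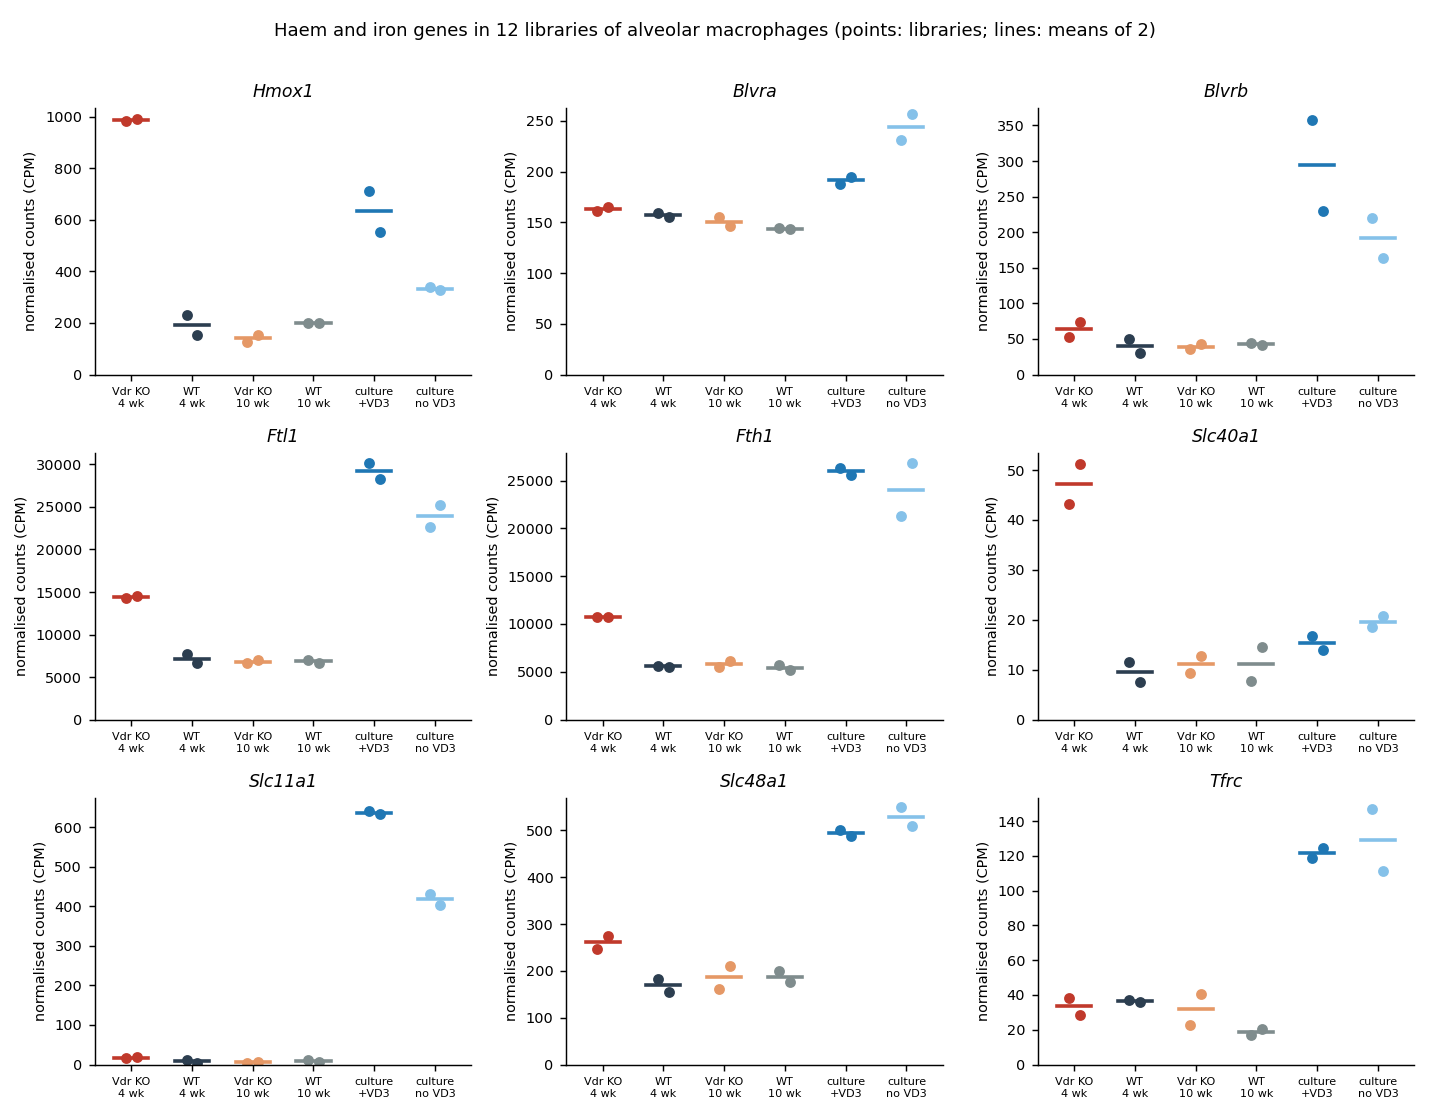
Normalised counts (CPM, linear axes from 0) of the 9 haem and iron genes in each of 12 libraries; points are libraries, lines are the means of 2, and the 6 groups run along each horizontal axis. Hmox1, Ftl1, Fth1 and Slc40a1 stand out in 4-week Vdr knockout cells among the fresh groups, and Slc11a1, Blvrb, Tfrc and ferritin are highest in culture.

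Among fresh cells the markers of red cell precursors also differed at 4 weeks. The 10 of 13 listed erythroid genes found in the table summed to 350 and 647 CPM in 4-week knockout libraries and 3160 and 1338 CPM in 4-week wild-type libraries. All 8 that were tested were lower in knockout, and 1 passed the threshold. These sums were 49.8 and 54.0 CPM in 10-week knockout, 163 and 72.0 CPM in 10-week wild-type and 1.48 to 3.24 CPM in cultured libraries. Their part in the 4-week difference was not tested. Other marker lists also differed at 4 weeks. Dendritic cell markers summed to 18.3 to 19.1 CPM in knockout and 33.6 to 97.7 CPM in wild-type cells. T cell markers summed to 130 to 138 CPM in knockout and 184 to 208 CPM in wild-type cells; Cd2 made up nearly all of this, and Cd3e, Cd3d and Cd3g were each at most 1.35 CPM in any library. Neutrophil markers summed to 10.2 to 14.6 CPM in knockout and 5.99 to 6.99 CPM in wild-type cells. Those of endothelium and stroma summed to 5.20 to 6.73 CPM in knockout and 1.83 to 2.45 CPM in wild-type cells. Single genes weighed heavily in both lists. Over the 12 libraries S100a8 reached 22.0 CPM, S100a9 3.77 CPM, and Retnlg, Mpo, Elane, Camp and Ngp at most 0.56 CPM. Acta2 reached 6.10 CPM, and Pecam1, Cdh5, Col1a1 and Col1a2 at most 0.773 CPM. Alveolar macrophage markers summed to 34288 to 46761 CPM in knockout and 29862 to 32719 CPM in wild-type cells. Chi3l3 alone, a gene of this list, ranged from 5044 to 34323 CPM over the 12 libraries. Markers of interstitial macrophages and monocytes overlapped, at 14.2 to 20.2 CPM in knockout and 19.3 to 25.3 CPM in wild-type cells. The part of these lists in the members' values was not tested. In bulk samples fewer cells of a type and less RNA per cell cannot be told apart.

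**Figure D2:**
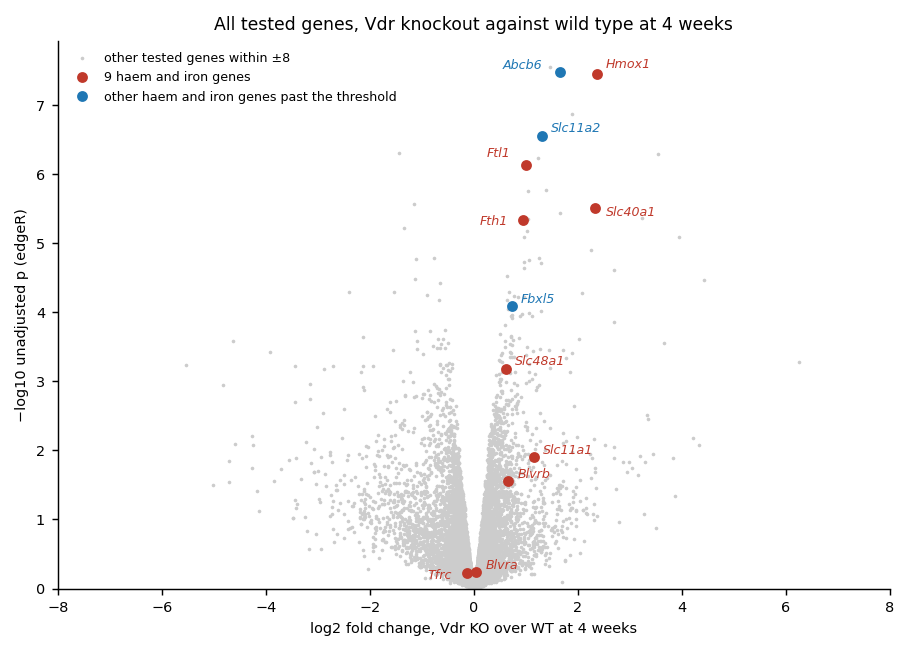
Log2 fold change (4-week Vdr knockout over wild type, horizontal) against −log10 of the unadjusted edgeR p (vertical) for tested genes; red points are the 9 haem and iron genes, blue points are 3 other haem and iron genes past the threshold, and genes beyond ±8 are not drawn. Hmox1 and Abcb6 lie near the top, and Blvra and Tfrc near 0.

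Other genes of haem and iron metabolism were read from a list of 64, of which 60 were in the table and 49 were tested. In 4-week knockout cells 3 of the 49 rose and none fell, where 0.667% of all genes passed in either direction. The median log2 fold change of the 49 was 0.02. Abcb6, a transporter of porphyrins and haem, was at 33.2 and 38.5 CPM in knockout and 11.3 and 11.3 CPM in wild-type libraries (log2 fold change 1.66 ± 0.13, edgeR adjusted p 0.000112). Slc11a2, which moves ferrous iron out of endosomes, was at 55.9 and 47.0 CPM in knockout and 21.9 and 19.8 CPM in wild-type libraries (1.31 ± 0.12, edgeR adjusted p 0.00059). Fbxl5, an iron-sensing subunit of the ubiquitin ligase that removes iron regulatory proteins, was at 243 and 235 CPM in knockout and 135 and 152 CPM in wild-type libraries (0.74 ± 0.12, edgeR adjusted p 0.0219). Alas1, which makes the first precursor of haem, missed the threshold with a log2 difference of -0.63 ± 0.14 (edgeR adjusted p 0.0701). Slc48a1 and Slc11a2 share chromosome 15 with Vdr, with 1 and 74 protein-coding genes between them and Vdr in the RefSeq order of GRCm38.p6; the part of that position in their values was not tested.

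At 10 weeks no member passed the threshold (0 of 9 by edgeR, and 0 of 9 by DESeq2), while 0.11% of all genes did by edgeR and 1.24% by DESeq2. At an unadjusted p under 0.05 there were 2 members, Hmox1 and Tfrc, where 9.76% of all genes were. Hmox1 was at 128 and 154 CPM in 10-week knockout and 200.5 and 197.9 CPM in 10-week wild-type libraries, a log2 difference of -0.50 ± 0.18 (edgeR adjusted p 0.351). With the libraries of conflicting codes exchanged the difference was 0.10, and with both left out it was -0.38. Within replicate 1 the Hmox1 difference was -0.65 and within replicate 2 it was -0.36. Tfrc was at 22.5 and 40.8 CPM in knockout and 17.1 and 20.6 CPM in wild-type libraries, a log2 difference of 0.73 ± 0.25 (edgeR adjusted p 0.331). Without the library labelled knockout replicate 1, the difference of Tfrc was 1.12 and passed (edgeR adjusted p 0.0451). Within replicate 1 the Tfrc difference was 0.39 and within replicate 2 it was 0.98.

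The ferritin chains and the exporter did not separate the genotypes at this age. Ftl1 was at 6604 and 6959 CPM in 10-week knockout and 7021 and 6652 CPM in 10-week wild-type libraries. Fth1 was at 5473 and 6098 CPM in knockout and 5675 and 5203 CPM in wild-type libraries, and Slc40a1 was at 9.41 and 12.7 CPM in knockout and 7.78 and 14.5 CPM in wild-type libraries. The groups overlapped for each of these 3 genes. The log2 difference of Slc40a1 was 0.66 with the libraries of conflicting codes exchanged, 0.71 with both left out, -0.40 without wild-type replicate 1 and 0.49 without wild-type replicate 2; none passed. Ferritin took 1.27% and 1.39% of counts in knockout and 1.35% and 1.29% in wild-type libraries. Slc11a1 was at 3.12 and 7.50 CPM in knockout and 11.1 and 6.73 CPM in wild-type libraries (log2 difference -0.87 ± 0.44, edgeR adjusted p 0.572). The other 6 members had log2 differences between -0.14 and 0.09. Of the 49 other haem and iron genes 1 rose, where 0.11% of all genes passed in either direction. This was Slc11a2, at 33.7 and 32.5 CPM in knockout and 19.2 and 18.4 CPM in wild-type libraries (0.82 ± 0.13, edgeR adjusted p 0.0373). Some marker lists differed at 10 weeks too. Lung epithelial markers summed to 292 to 406 CPM in knockout and 178 to 219 CPM in wild-type cells. Dendritic cell markers summed to 20.4 to 23.1 CPM in knockout and 47.9 to 71.0 CPM in wild-type cells. B cell markers summed to 0 to 0.361 CPM in knockout and 0.886 to 1.19 CPM in wild-type cells. Endothelial and stromal markers summed to 1.90 to 2.26 CPM in knockout and 1.11 to 1.53 CPM in wild-type cells. Alveolar macrophage markers summed to 32003 to 35735 CPM in knockout and 26315 to 27013 CPM in wild-type cells. Interstitial macrophage and monocyte markers summed to 21.6 to 22.2 CPM in knockout and 29.9 to 32.8 CPM in wild-type cells. T cell markers, nearly all Cd2, summed to 203 to 235 CPM in knockout and 238 to 252 CPM in wild-type cells. Erythroid markers summed to 49.8 to 54.0 CPM in knockout and 72.0 to 163 CPM in wild-type cells. Their part in the members' values was not tested.

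**Figure D3:**
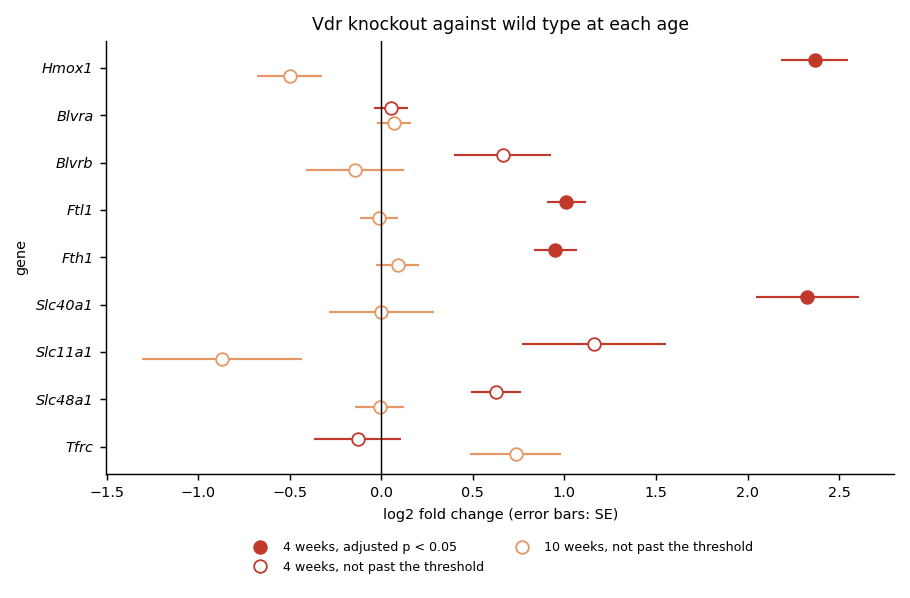
Log2 fold changes of the 9 genes, Vdr knockout over wild type at 4 weeks (red) and at 10 weeks (orange), with SE as error bars; filled points have an adjusted p under 0.05 in edgeR. Hmox1 and Slc40a1 lie above 2 at 4 weeks and at or under 0.1 at 10 weeks.

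The change of the genotype difference between the ages was tested as an interaction, the 10-week difference minus the 4-week difference. Of the 9 members 3 passed, all lower at 10 weeks, against 0.188% of all genes in either direction. The interaction was -2.87 ± 0.25 for Hmox1 (edgeR adjusted p 0.000706), -2.33 ± 0.40 for Slc40a1 (0.0495) and -1.02 ± 0.15 for Ftl1 (0.0203). Fth1, at -0.86 ± 0.17, did not pass in edgeR (adjusted p 0.0997) but did in DESeq2 (adjusted p 0.00016). Slc11a1 (-2.03 ± 0.59), Blvrb (-0.81 ± 0.38), Slc48a1 (-0.64 ± 0.19) and Tfrc (0.86 ± 0.34) did not pass either. Hmox1 kept its call in all 16 alternatives, with an adjusted p of at most 0.0344. Leaving out any 1 of the 8 libraries left at most 2 members past the threshold; Ftl1 had adjusted p-values up to 0.166, and Slc40a1 up to 0.294, when 1 library was left out. Slc40a1 lost the call in 11 of 16 alternatives, among them DESeq2 size factors (adjusted p 0.0535), the strict filter (0.056), the exchange of the libraries of conflicting codes (-1.66, 0.107) and their removal (-1.62, 0.247). With the libraries of conflicting codes exchanged, Hmox1 was at -2.27 (edgeR adjusted p 0.0344), and with both left out at -2.75 (0.0141), the only member past the threshold then. Among the 49 other genes Abcb6 passed, at -1.89 ± 0.19 (edgeR adjusted p 0.00103).

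Set against age within a genotype, the same libraries showed lower levels in 10-week than in 4-week knockout cells. In both genotypes the 4-week libraries were without Xist and all of the higher title numbers. Each 10-week group held 1 library of the lower title numbers without Xist and 1 of the higher ones with it. Age therefore cannot be fully told apart from sex and title number in either genotype. Of the 9 members 6 were lower at 10 weeks and none was higher, while 9.73% of all genes passed in either direction. The log2 fold change (10 over 4 weeks) was -2.81 ± 0.19 for Hmox1, -2.11 ± 0.28 for Slc40a1, -1.82 ± 0.42 for Slc11a1, -1.09 ± 0.11 for Ftl1, -0.89 ± 0.12 for Fth1 and -0.49 ± 0.14 for Slc48a1. The edgeR adjusted p-values of Hmox1, Ftl1, Slc40a1 and Fth1 were at most 0.0014, while those of Slc11a1 and Slc48a1 were 0.0209 and 0.0449. Slc11a1 and Slc48a1 lost the call without the library labelled 10-week knockout replicate 1 or without either 4-week knockout library, with adjusted p-values up to 0.166 for Slc11a1 and 0.272 for Slc48a1. With the libraries of conflicting codes exchanged or left out, 4 members passed, without Slc11a1 and Slc48a1. Between the libraries of the higher title numbers alone, which the labels do not call a batch, the 10-week minus 4-week log2 difference of Hmox1 was -2.68. This sets the 1 Xist-expressing 10-week knockout library against 2 without Xist, so age, title number and sex cannot be told apart in it. Marker lists differed between the ages in knockout cells as well. Erythroid markers summed to 49.8 to 54.0 CPM at 10 weeks and 350 to 647 CPM at 4 weeks. Of the 8 erythroid genes tested, 3 were lower at 10 weeks past the threshold. Lung epithelial markers summed to 292 to 406 CPM at 10 weeks and 56.0 to 216 CPM at 4 weeks. T cell markers, nearly all Cd2, summed to 203 to 235 CPM at 10 weeks and 130 to 138 CPM at 4 weeks. Endothelial and stromal markers summed to 1.90 to 2.26 CPM at 10 weeks and 5.20 to 6.73 CPM at 4 weeks. Dendritic cell markers summed to 20.4 to 23.1 CPM at 10 weeks and 18.3 to 19.1 CPM at 4 weeks. Those of interstitial macrophages and monocytes summed to 21.6 to 22.2 CPM at 10 weeks and 14.2 to 20.2 CPM at 4 weeks. B cell markers summed to 0 to 0.361 CPM at 10 weeks and 1.60 to 2.66 CPM at 4 weeks. Their part in the members' values was not tested.

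In wild-type cells no member passed between 10 and 4 weeks (0 of 9 by edgeR, where 2.11% of all genes did). DESeq2 called 1 member, Tfrc, and 5.41% of all genes. Tfrc was also the single member at an unadjusted p under 0.05 in edgeR, where 18.6% of all genes were. Tfrc was at 17.1 and 20.6 CPM in 10-week and 37.3 and 36.0 CPM in 4-week wild-type cells, a log2 difference of -0.96 ± 0.25 (edgeR adjusted p 0.0667). With both libraries of conflicting codes left out, Tfrc was at -1.09 and passed (edgeR adjusted p 0.043). The other 8 members had log2 differences between -0.13 and 0.22. Leaving out 1 library moved Slc11a1 between -0.36 (without 4-week replicate 2) and 1.01 (without 4-week replicate 1), Slc40a1 between -0.27 (without 10-week replicate 2) and 0.62 (without 10-week replicate 1), and Blvrb between -0.21 and 0.50 (without 4-week replicates 2 and 1); none passed. These comparisons share libraries with those of genotype, so their values are not separate evidence. Marker lists differed between the ages in wild-type cells too. Erythroid markers summed to 72.0 to 163 CPM at 10 weeks and 1338 to 3160 CPM at 4 weeks. Of the 8 erythroid genes tested, 4 were lower at 10 weeks past the threshold. Lung epithelial markers summed to 178 to 219 CPM at 10 weeks and 42.8 to 83.8 CPM at 4 weeks. Alveolar macrophage markers summed to 26315 to 27013 CPM at 10 weeks and 29862 to 32719 CPM at 4 weeks. Those of interstitial macrophages and monocytes summed to 29.9 to 32.8 CPM at 10 weeks and 19.3 to 25.3 CPM at 4 weeks. T cell markers, nearly all Cd2, summed to 238 to 252 CPM at 10 weeks and 184 to 208 CPM at 4 weeks. Neutrophil markers summed to 2.46 to 3.48 CPM at 10 weeks and 5.99 to 6.99 CPM at 4 weeks. Endothelial and stromal markers summed to 1.11 to 1.53 CPM at 10 weeks and 1.83 to 2.45 CPM at 4 weeks. B cell markers summed to 0.886 to 1.19 CPM at 10 weeks and 1.26 to 5.31 CPM at 4 weeks. The part of these lists in the wild-type values was not tested.

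Of the 49 other genes 4 rose and 5 fell in knockout cells between 10 and 4 weeks, where 9.73% of all genes passed. None passed in wild-type cells, where 2.11% of all genes did. In wild-type cells 13 of the 49 had an unadjusted p under 0.05 in edgeR (18.6% of all genes did). Abcb6 was at 11.02 and 10.8 CPM in 10-week and 33.2 and 38.5 CPM in 4-week knockout libraries (log2 fold change -1.72 ± 0.13). Ltf, the iron-binding protein lactoferrin, was at 5.46 and 3.16 CPM in 10-week and 21.7 and 35.6 CPM in 4-week knockout libraries (-2.69 ± 0.42). Alas1 went the other way, at 294 and 316 CPM in 10-week and 188 and 179 CPM in 4-week knockout libraries (0.73 ± 0.14). Slc11a2 (-0.64 ± 0.12), the endosomal ferrireductase Steap3 (-1.38 ± 0.31) and the iron-sulphur protein of the outer mitochondrial membrane Cisd1 (-0.66 ± 0.16) were also lower at 10 weeks. The edgeR adjusted p-values of these 6 genes were at most 0.0229.

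Vitamin D3 in culture changed 2 of the 9 members, the first enzyme of haem breakdown upward and a reductase that follows it downward. Over all genes 10.6% passed the threshold, so the members' count of 2 is read against that share. Hmox1 was at 712 and 553 CPM with vitamin D3 and 338 and 328 CPM without it. Both treated libraries were above both untreated ones, the log2 fold change was 0.93 ± 0.18 (1.90-fold), and the edgeR adjusted p was 0.00617. Without vitamin D3 replicate 1 the fold change of Hmox1 was 0.73 and its adjusted p 0.0683. Between libraries of the lower title numbers the Hmox1 log2 difference was 1.07, and between those of the higher numbers 0.75. Both lower-numbered libraries are labelled as replicate 1. The higher-numbered ones are replicate 3 with and replicate 2 without vitamin D3, so treatment and source cannot be told apart between them. Some marker lists differed as well. T cell markers, nearly all Cd2, summed to 122 to 136 CPM with vitamin D3 and 218 to 225 CPM without it, neutrophil markers to 9.34 to 11.7 CPM with and 15.98 to 22.1 CPM without it, and interstitial macrophage and monocyte markers to 56.6 to 73.0 CPM with and 47.1 to 49.8 CPM without it. Their part in the members' values was not tested.

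Blvra was at 188 and 195 CPM with vitamin D3 and 231 and 257 CPM without it, or -0.35 ± 0.09 on the log2 scale (edgeR adjusted p 0.0317). This call was lost in 5 of 11 alternatives: without vitamin D3 replicate 1, without vitamin D3 replicate 3 or without untreated replicate 2 (adjusted p-values up to 0.187), without the filter on low counts (0.0652) and with the groups of the contrast alone (0.192). Within the lower and the higher title numbers the Blvra log2 difference was -0.30 and -0.40. Blvrb, the other reductase, was at 358 and 230 CPM with vitamin D3 and 219.8 and 163 CPM without it; its log2 difference of 0.62 ± 0.26 did not pass (edgeR adjusted p 0.164). Ftl1 was at 30162 and 28278 CPM with vitamin D3 and 22692 and 25251 CPM without it (0.29 ± 0.10, edgeR adjusted p 0.112). Fth1 overlapped between the groups, at 26331 and 25568 CPM with and 21266 and 26788 CPM without vitamin D3 (0.11 ± 0.12). Ferritin took 4.94% and 4.76% of counts with vitamin D3 and 3.88% and 4.58% without it.

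The transporters did not pass the threshold with vitamin D3. Slc11a1 was at 641 and 632 CPM with and 430.3 and 404 CPM without vitamin D3, groups that did not overlap (0.61 ± 0.33, edgeR adjusted p 0.305). Slc40a1 was at 16.8 and 13.9 CPM with and 18.5 and 20.7 CPM without it (-0.35 ± 0.27). Slc48a1, at 500.2 and 488 CPM with and 549 and 509 CPM without it, differed by -0.10 ± 0.13. Tfrc, at 119 and 125 CPM with and 147 and 111 CPM without it, differed by -0.09 ± 0.23.

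Of the 49 other genes 4 rose and 4 fell with vitamin D3, where 10.6% of all genes passed in either direction. Bach1, the haem-sensing repressor, was at 95.8 and 94.98 CPM with and 184 and 145 CPM without vitamin D3 (log2 fold change -0.79 ± 0.12, edgeR adjusted p 0.00181). Cisd1 was at 128 and 136 CPM with and 36.2 and 52.0 CPM without it (1.59 ± 0.15), and Slc25a28, a mitochondrial iron importer, at 53.2 and 53.5 CPM with and 18.1 and 25.4 CPM without it (1.30 ± 0.15). Slc46a1, a transporter of folate and haem, was higher by 1.55 ± 0.36. Transferrin (Trf) was lower by a log2 fold change of -0.97 ± 0.10, and Ncoa4, the receptor that carries ferritin to the lysosome, was at 1171 and 1163 CPM with and 1853 and 1759 CPM without vitamin D3 (-0.63 ± 0.12). The edgeR adjusted p-values of these genes were at most 0.0178. Vdr itself was at 72.1 and 42.4 CPM with and 7.82 and 7.61 CPM without vitamin D3 (2.89 ± 0.36, edgeR adjusted p 0.000433).

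**Figure D4:**
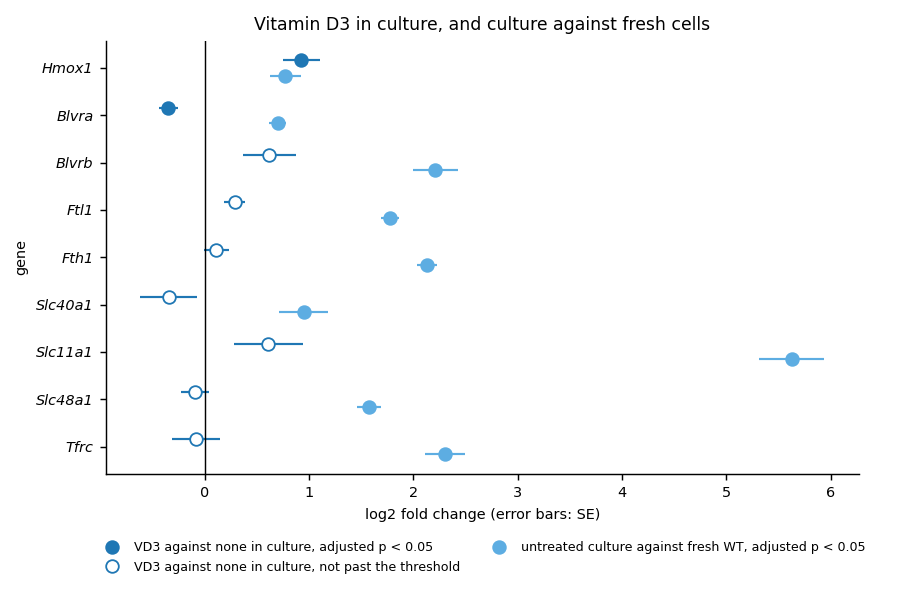
Log2 fold changes of the 9 genes for vitamin D3 over none in culture (dark blue) and for untreated culture over fresh wild-type cells of both ages (light blue), with SE as error bars; filled points have an adjusted p under 0.05 in edgeR. All 9 genes are right of 0 for culture, Slc11a1 farthest, and 2 are filled for vitamin D3.

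All 9 members were higher in untreated culture than in fresh wild-type cells, where 45.8% of all genes passed in either direction. This comparison is not one the study names, and time in culture, handling and the unstated age of the mice cannot be told apart in it. The phagosomal transporter Slc11a1 was at 430.3 and 404 CPM in untreated culture, against 4.49 to 11.7 CPM in the 4 fresh wild-type libraries (log2 fold change 5.63 ± 0.31, or 49.5-fold). Tfrc rose by 2.30 ± 0.19, Blvrb by 2.21 ± 0.22, Fth1 by 2.13 ± 0.10, Ftl1 by 1.78 ± 0.09 and Slc48a1 by 1.57 ± 0.11 on the log2 scale. Slc40a1 (0.95 ± 0.23), Hmox1 (0.77 ± 0.15) and Blvra (0.70 ± 0.08) rose least, and the edgeR adjusted p-values of the 9 were at most 0.00599. All 9 kept the call in all 14 alternatives. Against 10-week wild-type cells alone, the Slc11a1 log2 difference was 5.26 between libraries of the lower title numbers and 5.88 between those of the higher ones. Without the TMM scaling factor the median of all genes moved by -0.29 in this comparison, and each of the 9 log2 fold changes stays above 0 after that shift.

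The cultured cells differed from fresh ones in other markers too. Alveolar macrophage markers summed to 17833 to 19854 CPM in untreated culture and 26315 to 32719 CPM in fresh wild-type cells, and epithelial markers to 9.68 to 12.1 CPM in untreated culture and 42.8 to 219 CPM in fresh wild-type cells. Interstitial macrophage and monocyte markers summed to 47.1 to 49.8 CPM in untreated culture and 19.3 to 32.8 CPM in fresh wild-type cells. Neutrophil markers summed to 15.98 to 22.1 CPM in untreated culture and 2.46 to 6.99 CPM in fresh wild-type cells, and dendritic cell markers to 18.9 to 22.4 CPM in untreated culture and 33.6 to 97.7 CPM in fresh wild-type cells. Their part in the differences was not tested. Of the 49 other haem and iron genes 20 rose and 10 fell in culture, where 45.8% of all genes passed. Among those that rose were Slc11a2 (1.91 ± 0.10), Alas1 (1.65 ± 0.11), the porphyrin exporter Abcg2 (1.55 ± 0.11) and Ncoa4 (1.17 ± 0.10). The constitutive haem oxygenase Hmox2 also rose (0.82 ± 0.08), and Trf fell (-1.72 ± 0.10).

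Over the 6 groups the order of the levels differed between the genes. Hmox1 averaged 988 ± 3.9 CPM in 4-week knockout cells (SD, n = 2, as for all means here), 633 ± 113 CPM with vitamin D3 in culture and 333 ± 7.5 CPM in untreated culture. It averaged 199 ± 1.8 CPM in 10-week wild-type, 192 ± 56 CPM in 4-week wild-type and 141 ± 18 CPM in 10-week knockout cells. The upper 3 groups were separate from each other and from the rest, and the lower 3 overlapped their neighbours in the order. Slc40a1 shared with Hmox1 its highest group, at 47.2 ± 5.6 CPM in 4-week knockout cells, but was next highest in untreated culture at 19.6 ± 1.6 CPM. For Ftl1, Fth1, Blvrb, Slc11a1, Slc48a1, Blvra and Tfrc the 2 culture groups were highest. For these genes other than Tfrc, 4-week knockout cells had the next highest mean. Among them Ftl1 and Fth1 passed the threshold against 4-week wild-type cells, while Blvra, Blvrb, Slc11a1 and Slc48a1 did not. For Tfrc, 4-week wild-type cells came next and overlapped 4-week knockout cells.

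The genes whose levels followed that of Hmox1 most closely were named by Pearson's r of log2 CPM over the 12 libraries, among 11800 candidate genes. They were Abcb6 (r = 0.95), the malic enzyme Me1 (0.95), the nuclear iron-binding protein pirin, Pir (0.91), the signalosome subunit Cops7b (0.90) and the transcription factor Atf1 (0.89). Among the members r with Hmox1 was highest for Slc40a1 (0.84) and Ftl1 (0.73) and lowest for Blvra (0.35). The 12 points share 6 groups and the same scaling. Abcb6 and Me1 were chosen by r over all 12 libraries, so their r and levels in a part of them are not separate evidence. Over the 10 libraries other than 4-week knockout, r with Hmox1 was 0.91 for Abcb6 and 0.89 for Me1. The order of the members changed there: Blvrb (0.95), Slc11a1 (0.93) and Ftl1 (0.92) were highest, and Slc40a1 (0.64) and Blvra (0.63) were lowest. In 4-week knockout libraries, Me1 was at 15.97 to 17.8 CPM, against 1.01 to 1.96 CPM in 4-week wild-type cells. With vitamin D3, which raised Hmox1, Abcb6 differed by 0.10 and Me1 by 0.05 on the log2 scale.

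**Figure D5:**
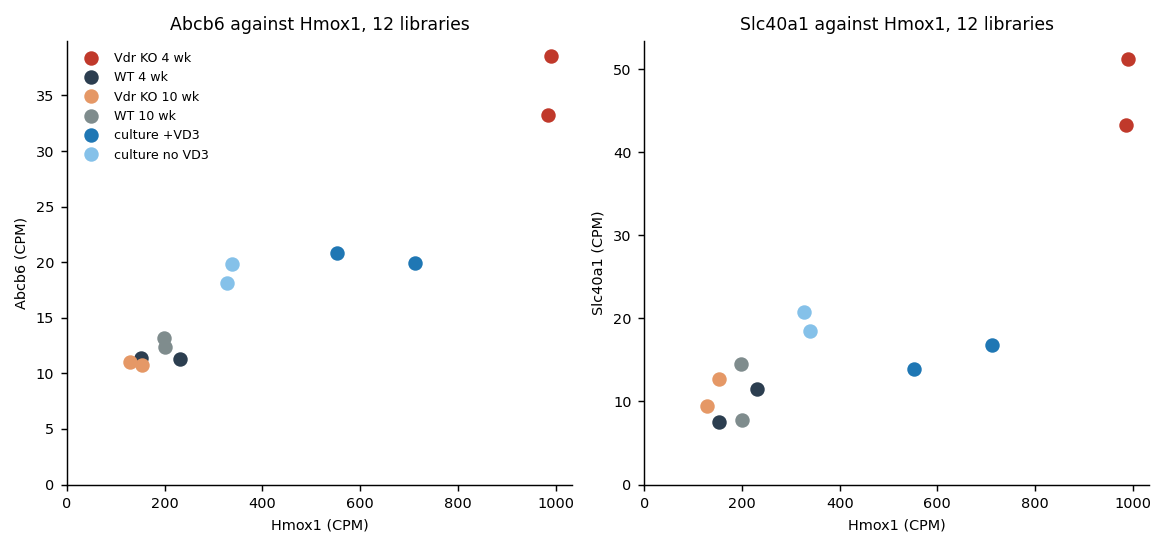
Abcb6 (left) and Slc40a1 (right) against Hmox1, all in CPM, in each of 12 libraries, coloured by group. The 4-week Vdr knockout libraries are highest on both axes, and the vitamin D3 libraries are higher than untreated culture in Hmox1 but lie near it in Abcb6.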

How the data were processed

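The authors deposited raw counts per gene for 12 libraries; their build was mm9 and their tools TopHat2 and edgeR, per the submitters' processing notes. The sources used here give no versions, counting tool or strand setting, so antisense or overlapping reads may be included. A deposited log2 table was not used. Counts were tested with edgeR 4.0.16 (R 4.3.3; quasi-likelihood F test, TMM, filterByExpr with minimum count 10 and total 15), all 12 libraries in 1 fit with 6 group coefficients. P-values were adjusted by Benjamini-Hochberg over 12748 genes for each of 7 contrasts, with a threshold of 0.05; SE is that of the log2 fold change. CPM values use TMM-scaled totals. The members, lists, tests and naming rules were chosen with earlier results of these data known. The 9 members are named, other haem and iron genes past the threshold (up to 6 per contrast by p), and the 5 genes with the highest r with Hmox1 (predicted genes left out, prior count 2). Other list genes named were chosen after their values were seen. The code was tested on simulated counts with known changes. Alternatives were DESeq2 1.42.0, its size factors, no filter or 5 CPM in 2 libraries, the groups of a contrast alone, exchanged 10-week libraries, a replicate block, CPM of column totals, and leaving out each library.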

Additional observations from a re-analysis of the deposited data

Results flagged for a closer look

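For 3 genes the difference between knockout and wild type was not the same at the 2 ages by the test of the interaction (edgeR, adjusted over all genes). The 10-week difference minus the 4-week difference, on the log2 scale, was -2.87 for Hmox1, -1.02 for Ftl1 and -2.33 for Slc40a1. The log2 difference of Hmox1 was -0.50 at 10 weeks and 2.37 at 4 weeks, that of Ftl1 -0.01 and 1.01, and that of Slc40a1 0.0011 and 2.33. The 10-week value of Slc40a1 was 0.66 with the libraries of conflicting codes exchanged and 0.71 with both left out, and its interaction lost the call in 11 of 16 alternatives; that of Ftl1 lost it in 9 of 16 and that of Hmox1 in 0 of 16. Groups of 2 libraries are too small for a test of single outlying samples.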

How the results depend on the processing

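All 316 alternatives of the 24 called member results kept the direction, and 276 also the call. Without the filter on low counts 7 members passed at 4 weeks, 3 at 10 weeks and 8 in the interaction, when 3.92%, 2.85% and 2.22% of 17620 genes passed; the cause was not tested. Between ages in wild type 1 member passed without the filter, by DESeq2, with the groups of the contrast alone, with the replicate block and with both libraries of conflicting codes left out; the last left 1 in the interaction, with fewer samples. Leaving out 1 library gave 0 to 1 members at 10 weeks, 1 to 2 in the interaction and 0 to 2 with vitamin D3. Where groups kept 1 library, it is assumed to vary like the others. With the replicate block 4 members passed at 4 weeks, 0 at 10 weeks, 2 in the interaction, 4 between ages in knockout and 2 with vitamin D3. Same-numbered libraries deviated with correlations of -0.12 at 4 weeks and 0.12 at 10 weeks, and the labels do not pair them. The crossed block at 4 weeks gave 6 members. Between ages in wild type 6.94% of all genes passed without the filter and 5.41% by DESeq2. Beyond the main fit, such shares were taken only for these 2 alternatives. The members' counts in the others, blocks included, thus cannot be set against a share of all genes. Signs turned only for uncalled values. With the 10-week pair exchanged Hmox1 was at 0.10 and Slc11a1 at 0.0019 (log2, 10 weeks). Leaving out 1 library gave -0.36 to 0.071 for Tfrc at 4 weeks, and -0.043 to 0.29 for Fth1 and -0.27 to 0.13 for Tfrc with vitamin D3. Depth limits no member, as each had at least 64 counts; the number of libraries limits precision.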
